A study of Mus musculus with 18 samples.

Results

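The effect of 2,3-benzofuran on the mouse liver transcriptome was set against the effect of 1,5-naphthalenediamine, gene by gene. The comparison used 12 of the 18 arrays of the series, 3 in each of 4 groups, chosen by the group that the sample labels give. Each effect is the mean log2 signal of the exposed livers minus that of the controls of the same route, and the difference of effects is the effect of 2,3-benzofuran minus the effect of 1,5-naphthalenediamine. A difference of 1 on the log2 scale is 2-fold. All animals were B6C3F1 females, hybrid mice that serve in long-term cancer tests, aged 5 weeks at the start and 18 weeks after 13 weeks of exposure. The first group received 2,3-benzofuran at 240 mg/kg in corn oil by gavage on 5 days per week, and its controls received corn oil by gavage at 5 ml/kg. The second received 1,5-naphthalenediamine at 2000 ppm in the feed on 7 days per week, and its controls received the feed. The labels class both chemicals as positive for liver tumours. Dose, route, vehicle and schedule therefore differed together with the chemical, and what each contributes to a difference of effects cannot be told apart. The labels give each array as 1 animal. The p-values rest on the spread between animals within groups, estimated over all 18 arrays of the series (6 groups).

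2,3-Benzofuran is a benzene ring fused to an oxygen-containing ring, and 1,5-naphthalenediamine is an aromatic amine with its amino groups on a pair of fused benzene rings. Hepatocytes respond to foreign chemicals through several regulators that act side by side. NRF2 is released from its inhibitor KEAP1 by reactive compounds and raises conjugating and antioxidant enzymes. The aryl hydrocarbon receptor binds flat aromatic compounds and raises Cyp1a genes, and the nuclear receptors CAR and PXR raise other cytochrome P450 genes. Shortage of amino acids or unfolded protein in the endoplasmic reticulum acts through further pathways, among them ATF4, which raises enzymes that make amino acids, and ATF6 and XBP1, which raise chaperones. Many liver genes of mice also differ between the sexes, through the pattern of growth hormone release.

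Of the genes measured, 12169 were tested, each by the probe set with the highest mean. The medians of the 18 arrays ranged from 4.25 to 4.35, and pairs of arrays correlated at 0.979 to 0.995. Each of the 11 tested hepatocyte markers had a mean signal above the lowest of these medians, and 0 of them were called in the difference. Their summed linear signal, in units of 1000, was 122.1 to 124.1 in 2,3-benzofuran livers, 125.6 to 129.6 in corn oil livers, 127.6 to 131.5 in 1,5-naphthalenediamine livers and 119.4 to 130.9 in feed control livers. The median effect over all tested genes was 0.11 for 2,3-benzofuran and 0.18 for 1,5-naphthalenediamine, so effects are given below relative to these medians, and differences of effects lie 0.07 above the deposited scale. Calls rest on the deposited scale, at a Benjamini-Hochberg adjusted p under 0.05 from limma over all tested genes. Where a group averages under 4.25, the lowest of the array medians, its signal is not shown to be above background.

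Most large effects had the same sign with both chemicals. Across all tested genes, which are not independent replicates, their Pearson correlation was 0.65 and their Spearman correlation 0.69, and the effects share no array. With quantile normalization the Pearson correlation was 0.62. Of 1652 genes that changed at least 1.5-fold with either chemical, 1507 had effects of the same sign. In 363 genes the change was called and at least 1.5-fold in the same direction with both. The share of the same sign over all tested genes was not counted. The difference of effects passed the test in 117 genes, which is 0.961% of those tested, and 1464 genes had an unadjusted p under 0.05. Among the 117, the effect of 2,3-benzofuran was the higher in 44 genes (0.362%) and the lower in 73 genes (0.6%). This split depended on scaling: it was 90 and 82 with quantile normalization, 78 and 65 with arrays centred on the median gene, and 73 and 62 with the 75th percentile. With the 6 control arrays pooled, 321 genes were called, 78 of them among the 117. Each of 38 genes was called when any of the 12 arrays was left out, 16 of them higher with 2,3-benzofuran and 22 lower. The count fell to between 43 and 70 when 2,3-benzofuran animal 6, corn oil animal 24 or 25, 1,5-naphthalenediamine animal 4 or 5, or feed control animal 28 was left out. It was 150 without feed control animal 27 and 139 without feed control animal 29.

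**Figure D1:**
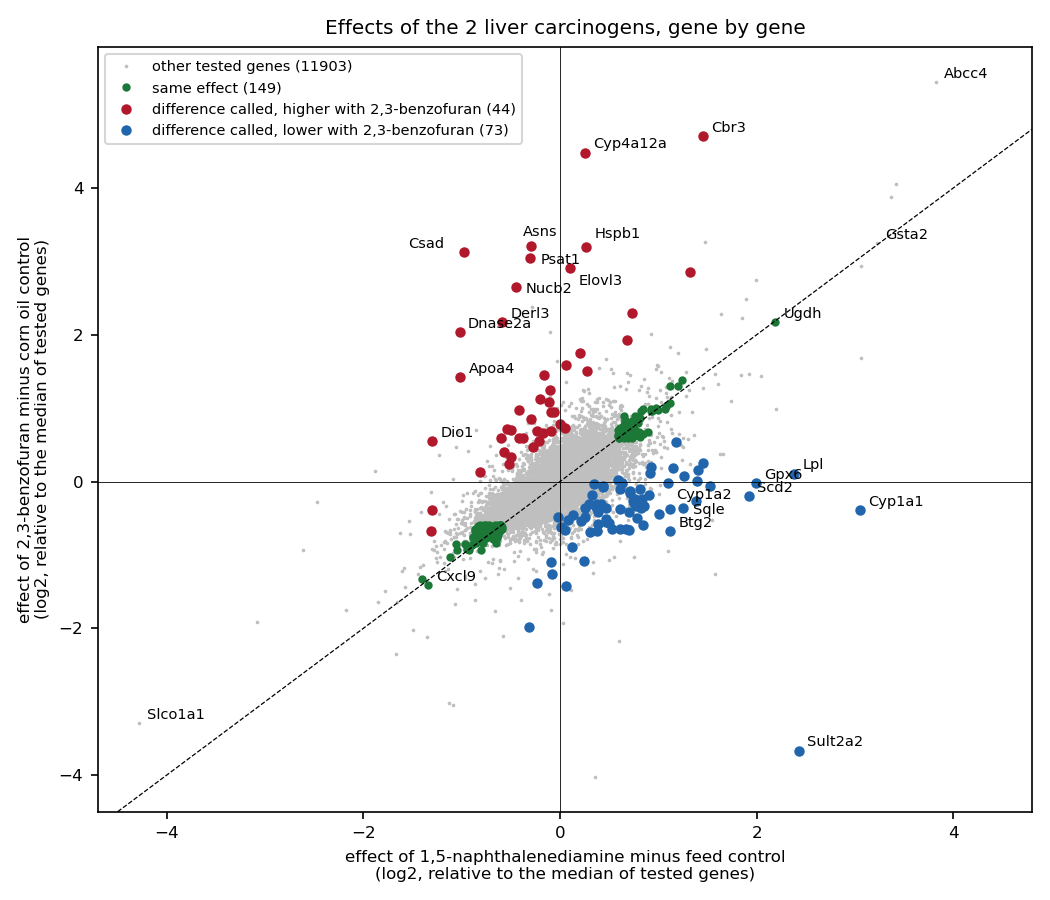
Effect of 2,3-benzofuran (vertical axis) against effect of 1,5-naphthalenediamine (horizontal axis) for 12169 genes, both on the log2 scale relative to the median gene; the dashed line marks equal effects. The 44 genes called higher with 2,3-benzofuran lie above the line, the 73 called lower lie below it, and the 149 genes with the same effect lie along it.

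The level behind a difference was read from the 4 group means. In 42 of the 44 genes called higher, the 2,3-benzofuran livers had the highest mean of the 4 groups. The lowest mean was that of corn oil livers in 25, of 1,5-naphthalenediamine livers in 13 and of feed control livers in 6. Of the 73 genes called lower, the 1,5-naphthalenediamine livers had the highest mean in 55 and the corn oil livers in 18. The lowest mean was that of 2,3-benzofuran livers in 23, of corn oil livers in 2 and of feed control livers in 48.

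Several properties of the arrays moved with the groups. The 75th percentile of the log2 signal was 6.36 to 6.41 in livers exposed to either chemical and 6.10 to 6.26 in their controls. Array medians were 4.25 to 4.29 in these exposed livers and 4.31 to 4.35 in the controls. The part of this shift in the changes common to both chemicals was not tested. An index of clock genes (the mean log2 signal of Dbp, Per3, Nr1d1, Nr1d2 and Tef minus that of Bmal1, Npas2, Clock and Nfil3) was -1.49, -1.36 and -0.45 in the 2,3-benzofuran livers (animals 6, 8 and 10) and -0.41, 2.87 and 3.02 in the corn oil livers (animals 22, 24 and 25). It was -1.64, 0.43 and -0.48 in the 1,5-naphthalenediamine livers (animals 2, 4 and 5) and -1.16, -0.91 and 1.07 in the feed control livers (animals 27, 28 and 29). Signal of 18S ribosomal RNA probes was 10.99 and 7.93 in 2,3-benzofuran animals 6 and 10 and 9.97 in 1,5-naphthalenediamine animal 4, against 5.94 to 6.67 in the other 9 arrays. With the clock index as a covariate 52 genes were called, 46 of them among the 117. Without the 3 arrays of high 18S signal, which leaves 1 2,3-benzofuran array that is assumed to vary like the other groups, 23 genes were called, 20 of them among the 117. With the RNA integrity number as a covariate 42 genes were called, 40 of them among the 117, and with the 18S signal as a covariate 102, of which 96 were among the 117. All 117 kept the sign of their difference in these 4 settings. The labels used here give no time of day, and its part in the results was not tested.

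Asns and Psat1, which make amino acids, were high in 2,3-benzofuran livers only among the 4 groups. Asns, which makes asparagine, had log2 signals of 7.67, 7.46 and 8.27 in 2,3-benzofuran livers and 4.67, 4.43 and 4.35 in corn oil livers. In 1,5-naphthalenediamine livers the signals were 4.48, 4.58 and 4.65, against 4.63, 4.76 and 4.68 in feed control livers. The 2,3-benzofuran livers stood apart from the other 9, which overlapped. The effect was 3.21 for 2,3-benzofuran and -0.29 for 1,5-naphthalenediamine, a difference of 3.50 ± 0.22 (SE, n = 3 per group; 11.3-fold; limma adjusted p = 3.06e-08). Asns is known to carry a binding site for ATF4 near its start. The 300 bases around the start of the gene (chr6:7693160-7693459 of GRCm38.p6, minus strand, from RefSeq) hold TGATGNAA, an amino acid response motif, once in a search of both strands. The match, in capitals, begins 23 bases before the start.
Asns: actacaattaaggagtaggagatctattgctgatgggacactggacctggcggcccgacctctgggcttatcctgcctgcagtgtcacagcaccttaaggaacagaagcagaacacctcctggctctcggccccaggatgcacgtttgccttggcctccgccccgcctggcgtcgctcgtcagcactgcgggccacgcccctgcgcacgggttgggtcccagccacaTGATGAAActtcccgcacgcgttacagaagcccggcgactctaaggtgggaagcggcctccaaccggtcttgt

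The letters TGATGNAA occur in 2.79% of the windows of tested genes and in 8 of 26 windows of the amino acid stress list (30.8%). Among genes called higher 1 of 37 windows held them (2.7%), that of Asns, and neither window of Psat1 did. Psat1, an enzyme of serine synthesis, was also highest in 2,3-benzofuran livers, with 6.34, 6.48 and 6.39 in 2,3-benzofuran livers and 3.20, 3.12 and 3.42 in corn oil livers. Signals of Psat1 were 3.32, 3.29 and 2.86 in 1,5-naphthalenediamine livers and 3.33, 3.44 and 3.08 in feed control livers. Only the 2,3-benzofuran mean was above the lowest array median. The difference was 3.35 ± 0.18 (adjusted p = 3.76e-09), or 2.22 with values under the lowest array median raised to it. Few other genes of amino acid stress were called. Of the list's 30 tested members, Asns and Psat1 were called higher and Ddit3, a stress-induced transcription factor, lower, with a difference of -0.60 ± 0.15 that lost its call without any 1 of 10 arrays. The median difference of the list was 0.07, against 0.04 over all tested genes. Members chosen after their values were seen were Trib3 and Chac1, known ATF4 targets, and Phgdh, the enzyme before Psat1 in serine synthesis. Their differences of -1.44, -0.55 and 0.24 did not pass the test.

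Csad and Nucb2 were also among the largest differences. Csad, which makes hypotaurine on the way to taurine, had 10.4, 8.90 and 9.94 in 2,3-benzofuran livers and 7.03, 6.08 and 6.38 in corn oil livers. Its signals were 7.26, 6.82 and 7.04 in 1,5-naphthalenediamine livers and 7.23, 8.58 and 7.70 in feed control livers. The effects ran in opposite directions, 3.13 for 2,3-benzofuran and -0.97 for 1,5-naphthalenediamine, and the second did not pass the test (adjusted p = 0.073). The difference of 4.11 ± 0.49 (adjusted p = 0.000182) held a part of the controls, as corn oil livers lay 1.34 below feed control livers, and exposed livers alone differed by 2.70. Nucb2, a calcium-binding protein and the precursor of nesfatin, had 7.00, 7.11 and 7.25 in 2,3-benzofuran livers and 4.58, 4.42 and 4.08 in corn oil livers. In 1,5-naphthalenediamine livers it had 4.31, 4.09 and 4.17, against 4.44, 4.86 and 4.10 in feed control livers. Its difference was 3.10 ± 0.25 (adjusted p = 1.46e-06), again with no overlap between 2,3-benzofuran livers and any other group.

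Hspb1, a small heat shock protein, had 12.1, 11.4 and 11.8 in 2,3-benzofuran livers and 8.44, 8.62 and 8.28 in corn oil livers. Signals were 9.56, 9.22 and 8.89 in 1,5-naphthalenediamine livers, against 8.78, 8.83 and 8.74 in feed control livers. Its difference was 2.93 ± 0.29 (adjusted p = 1.66e-05). Another small heat shock protein gene, Hspb8, was called in the other direction, with a difference of -1.02 ± 0.22 that lost its call without any 1 of 7 arrays. These were the 2 called members of 18 tested cytosolic heat shock genes, whose median difference was 0.16. Slc11a2, an importer of iron across membranes, rose with 2,3-benzofuran by 1.45 and had an effect of -0.16 with 1,5-naphthalenediamine, a difference of 1.61 ± 0.27 (adjusted p = 0.00794). Tfrc, the transferrin receptor, had effects of 3.27 and 1.48, and its difference of 1.79 ± 0.46 did not pass the test (adjusted p = 0.0892).

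**Figure D2:**
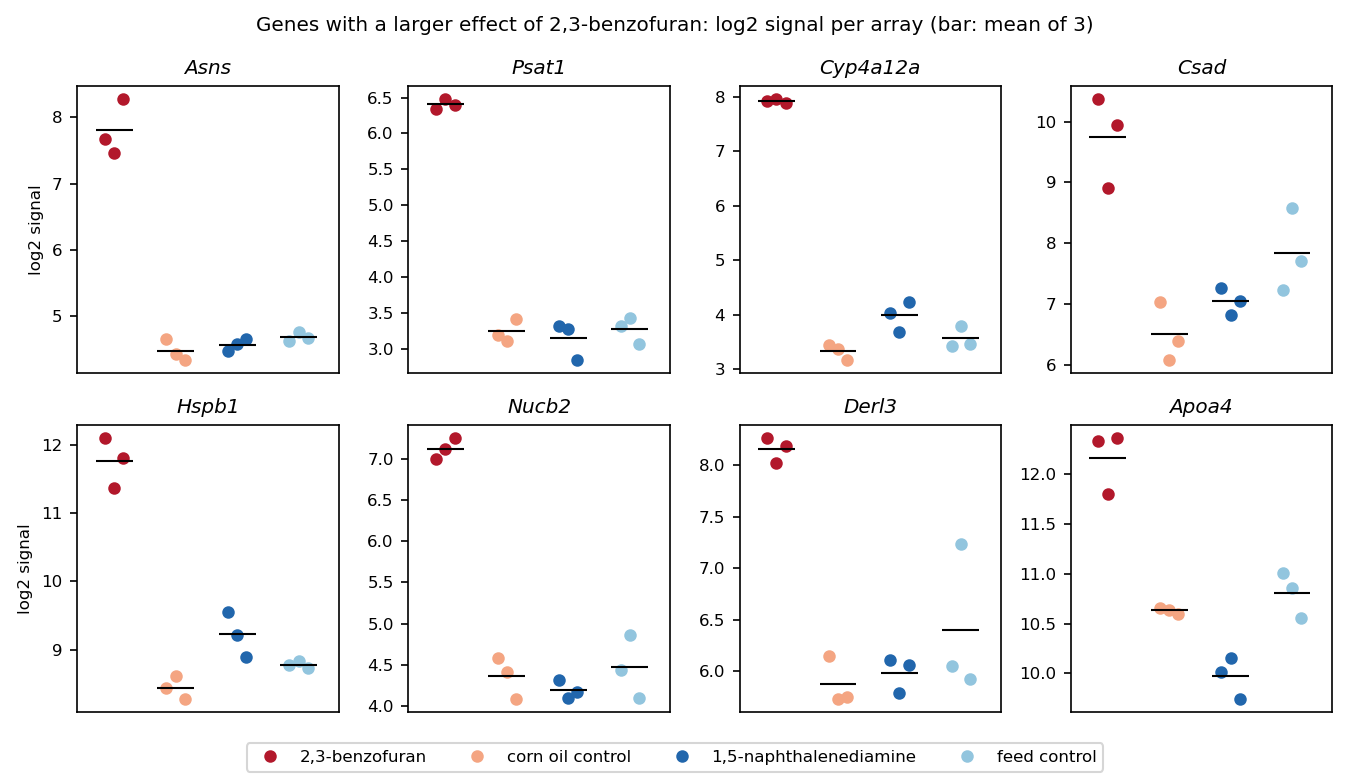
Log2 signal of 8 genes called higher with 2,3-benzofuran in each of the 12 arrays (points) with the group mean (bar); each panel has its own axis. In all 8 genes the 2,3-benzofuran livers lie above all others.

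Part of the protein folding genes of the endoplasmic reticulum had higher effects with 2,3-benzofuran. Of 23 tested endoplasmic reticulum chaperones and partners, 4 were called higher (Derl3, Sdf2l1, Dnajc3 and Pdia6) and 0 lower. The shares over all tested genes were 0.362% and 0.6%. Of the 23, 17 had a positive difference, and the median was 0.39. With 2,3-benzofuran alone 12 rose and 2 fell, against 24.8% and 7.58% of all tested genes; with 1,5-naphthalenediamine 2 rose and 2 fell, against 31.5% and 8.41%. Derl3, which helps to remove misfolded protein from the endoplasmic reticulum, had 8.26, 8.02 and 8.19 in 2,3-benzofuran livers and 6.14, 5.73 and 5.75 in corn oil livers. It had 6.11, 5.79 and 6.06 in 1,5-naphthalenediamine livers and 6.05, 7.23 and 5.92 in feed control livers. The 2,3-benzofuran livers were above all others, and feed control animal 28 stood above the rest of its group. Its difference was 2.76 ± 0.33 (adjusted p = 0.000189). Dnajc3, a co-chaperone of the endoplasmic reticulum, rose with 2,3-benzofuran by 0.59 and fell by 0.60 with 1,5-naphthalenediamine. The effects of Sdf2l1, another partner of the chaperone BiP, were 0.98 and -0.42, and those of Pdia6, a protein disulfide isomerase, 0.40 and -0.56. Chosen after its values were seen, Hspa5, which encodes BiP itself, had effects of -0.27 and -0.48, and Xbp1, a transcription factor of this stress response, of -0.54 and -0.32; neither difference was called. With the clock index as a covariate Derl3 alone of the 4 was called, as it was without the 3 arrays of high 18S signal, and 1 was called without 2,3-benzofuran animal 6, corn oil animal 24 or 25 or feed control animal 28, and 2 without 1,5-naphthalenediamine animal 4 or 5. Sdf2l1 and Pdia6 lost their calls without any 1 of 6 and of 7 arrays.

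The endoplasmic reticulum stress motif, CCAAT and CCACG with 9 bases between them, is read by ATF6 with NF-Y. Searched on both strands, after the values were seen, it was found in 4 of the 37 windows of genes called higher (10.8%), in 0 of 56 windows of genes called lower, and in 16 of 9805 windows of tested genes (0.163%). The 4 include Ero1b, an oxidase of the endoplasmic reticulum outside the list, with a difference of 1.02 ± 0.22. They are shown from RefSeq (GRCm38.p6, 300 bases each) with the match in capitals: Derl3 (chr10:75893148-75893447, plus strand), Dnajc3 (chr14:118937682-118937981, plus), Ero1b (chr13:12565633-12565932, plus) and Pdia6 (chr12:17266339-17266638, plus).
Derl3: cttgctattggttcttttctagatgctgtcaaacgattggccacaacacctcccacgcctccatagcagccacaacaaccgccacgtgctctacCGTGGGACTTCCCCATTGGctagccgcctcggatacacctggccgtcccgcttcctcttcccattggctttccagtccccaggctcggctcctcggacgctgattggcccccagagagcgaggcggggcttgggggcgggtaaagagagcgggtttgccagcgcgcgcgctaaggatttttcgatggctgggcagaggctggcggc
Dnajc3: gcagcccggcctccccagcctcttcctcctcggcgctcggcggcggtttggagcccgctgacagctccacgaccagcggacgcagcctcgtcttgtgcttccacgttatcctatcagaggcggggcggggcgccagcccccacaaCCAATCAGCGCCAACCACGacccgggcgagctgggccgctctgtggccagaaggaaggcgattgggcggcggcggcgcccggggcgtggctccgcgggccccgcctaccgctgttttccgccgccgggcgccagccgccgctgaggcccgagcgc
Ero1b: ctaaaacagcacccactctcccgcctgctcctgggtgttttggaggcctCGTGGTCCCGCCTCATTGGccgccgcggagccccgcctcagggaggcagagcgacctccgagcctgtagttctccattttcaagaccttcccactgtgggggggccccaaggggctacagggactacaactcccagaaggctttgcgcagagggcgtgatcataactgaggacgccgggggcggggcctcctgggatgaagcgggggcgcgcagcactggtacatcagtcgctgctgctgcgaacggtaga
Pdia6: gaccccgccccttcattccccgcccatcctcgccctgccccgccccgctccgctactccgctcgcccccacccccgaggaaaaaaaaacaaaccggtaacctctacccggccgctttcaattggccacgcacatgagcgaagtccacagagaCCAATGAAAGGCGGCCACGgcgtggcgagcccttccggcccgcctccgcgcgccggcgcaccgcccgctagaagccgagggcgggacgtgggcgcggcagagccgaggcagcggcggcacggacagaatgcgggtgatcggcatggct

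In Dnajc3 and Pdia6 the motif reads along the gene's strand, and in Derl3 and Ero1b on the opposite strand, 98 to 201 bases before the start. Of the 16 tested genes with these letters, 12 had a positive difference, and the median difference was 0.42. Their median effect was 0.02 with benzofuran and -0.31 with naphthalenediamine, both relative to the median gene. As a set these genes did not rise with benzofuran, and their effects with naphthalenediamine were mostly below the median gene. Of the 16, 9 belong to the chaperone list. The list and the motif thus overlap, and the 4 matches are not evidence apart from the counts of the list. The other 6 of those 9, Creld2, Hsp90b1, Calr, Canx, Hspa5 and Syvn1, had differences of 1.71, 0.46, 0.46, 0.23, 0.21 and -0.43 that did not pass the test.

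Of 19 tested genes that male mouse livers express more than female ones, 4 were called higher and 0 lower in these females. Over all tested genes these shares were 0.362% and 0.6%, and the median difference of the list was 0.41. The list did not rise as a whole: with 2,3-benzofuran 6 rose and 3 fell, with a median effect of -0.28, and with 1,5-naphthalenediamine 4 rose and 8 fell, with a median of -0.50. Of all tested genes 24.8% rose and 7.58% fell with 2,3-benzofuran, and 31.5% rose and 8.41% fell with 1,5-naphthalenediamine. The count of called differences was 1 without corn oil animal 24 or 1,5-naphthalenediamine animal 4, 2 without 2,3-benzofuran animal 8 or 10, corn oil animal 25 or 1,5-naphthalenediamine animal 5, and 1 with the clock index or RNA integrity as a covariate, without the 3 arrays of high 18S signal, or with controls pooled. Cyp4a12a, a fatty acid hydroxylase of male mouse liver, had 7.92, 7.96 and 7.89 in 2,3-benzofuran livers and 3.44, 3.38 and 3.18 in corn oil livers. Signals were 4.03, 3.69 and 4.24 in 1,5-naphthalenediamine livers, against 3.42, 3.80 and 3.47 in feed control livers. Its mean was above the lowest array median in 2,3-benzofuran livers only, and the difference was 4.23 ± 0.23 (adjusted p = 3.76e-09), or 3.74 with dim values raised to that median. Elovl3, a fatty acid elongase, had effects of 2.91 and 0.11, with a difference of 2.80 ± 0.52 (adjusted p = 0.0162) that was not called without corn oil animal 24 or without 1,5-naphthalenediamine animal 4. Corn oil livers lay 1.67 below feed control livers in Elovl3. Cyp2d9, a steroid hydroxylase, rose with both chemicals, by 2.86 with 2,3-benzofuran and 1.33 with 1,5-naphthalenediamine. Cyp7b1, an oxysterol hydroxylase, had effects of 0.71 and -0.50. The differences of Cyp2d9 and Cyp7b1, 1.53 ± 0.32 and 1.20 ± 0.26, lost their calls without any 1 of 7 and of 10 arrays. Other male-biased genes moved differently: Slco1a1, an uptake transporter, fell with both chemicals, by 3.29 with 2,3-benzofuran and by 4.29 with 1,5-naphthalenediamine, and its difference of 0.99 ± 0.83 did not pass the test. Cyp4a12a and Cyp2d9 have close paralogs, and their probe sets may read these as well.

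Among 21 tested female-biased genes, 3 were called lower (Sult2a2, Cyp2b13 and Aldh1b1) and 0 higher, against 0.6% and 0.362% of all tested genes. The list had a median difference of -0.66. With 2,3-benzofuran 0 rose and 9 fell, with a median effect of -0.59, against 24.8% and 7.58% of all tested genes. With 1,5-naphthalenediamine 4 rose and 5 fell, with a median effect of -0.155, against 31.5% and 8.41%. The count of called differences was 0 without corn oil animal 24 or 25, 1,5-naphthalenediamine animal 4 or feed control animal 28. It was 1 without 2,3-benzofuran animal 6 or 1,5-naphthalenediamine animal 5. It was 5 without feed control animal 27. With the clock index or RNA integrity as a covariate, or without the 3 arrays of high 18S signal, 0 were called. With controls pooled 3 were called and the median was -0.03. Sult2a2, a sulfotransferase of steroids and bile acids, had 4.36, 7.51 and 7.99 in 2,3-benzofuran livers and 8.75, 11.1 and 10.7 in corn oil livers. Livers given 1,5-naphthalenediamine had 10.0, 11.6 and 11.7, against 10.3, 7.28 and 7.90 in feed control livers. The spread within groups was wide: the 2,3-benzofuran livers did not overlap their controls, whereas the 1,5-naphthalenediamine livers overlapped with feed control animal 27. Its difference of -6.10 ± 1.20 was the largest called in either direction and had an adjusted p of 0.0184. It was not called without corn oil animal 24 or 25, feed control animal 28 or 1,5-naphthalenediamine animal 4, nor with the clock index as a covariate (-5.25, adjusted p = 0.0836). Sult2a2 and Cyp2b13 belong to families of near-identical genes. Cyp2b13, a steroid-metabolizing P450, and Aldh1b1, an aldehyde dehydrogenase, had differences of -1.44 and -0.79, which lost their calls without any 1 of 7 and of 9 arrays.

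Cyp1a1 and Cyp1a2 had higher effects with 1,5-naphthalenediamine. Cyp1a1, the standard target of the receptor, had 3.70, 3.68 and 3.60 in 2,3-benzofuran livers and 3.90, 4.07 and 3.85 in corn oil livers, all under the lowest array median. It had 5.88, 7.46 and 7.63 in 1,5-naphthalenediamine livers and 3.47, 3.87 and 3.95 in feed control livers. The difference was -3.44 ± 0.41 (adjusted p = 0.000143), or -2.67 with dim values raised to the lowest array median. Cyp1a2, a constitutive hepatic enzyme that activates aromatic amines, had 12.2, 12.3 and 12.5 in 2,3-benzofuran livers and 12.1, 12.2 and 12.4 in corn oil livers. Its signals were 13.2, 13.8 and 13.6 in 1,5-naphthalenediamine livers and 11.9, 11.8 and 12.2 in feed control livers. The effects were 0.01 and 1.39, and the difference was -1.38 ± 0.18 (adjusted p = 0.000195). In both genes the 1,5-naphthalenediamine livers lay above all other arrays, and both were called when any 1 array was left out. Of the 7 tested genes of the list these 2 were called lower and 0 higher, and the median difference was -0.41. With 1,5-naphthalenediamine 6 rose and 0 fell, with a median effect of 1.39, against 31.5% and 8.41% of all tested genes. With 2,3-benzofuran 2 rose and 0 fell, with a median effect of -0.13, against 24.8% and 7.58%. Chosen after the values were seen, Ugdh and Nqo1, which are also NRF2 targets, belong to the same list and had differences of -0.02 and 0.59 that were not called. The letters TNGCGTG, the core that the receptor reads, were not found in the 7 windows of the list, against 9.22% of windows of tested genes.

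Single genes of lipid handling differed in each direction: of 17 tested genes of lipid uptake and storage 1 was called higher (Apoa4) and 1 lower (Lpl), and the median was 0.13. Lpl, lipoprotein lipase, had 7.02, 7.44 and 6.64 in 2,3-benzofuran livers and 7.04, 7.09 and 6.31 in corn oil livers, and these overlapped. In 1,5-naphthalenediamine livers it had 9.99, 9.53 and 9.46, against 7.06, 7.91 and 6.34 in feed control livers. The difference was -2.27 ± 0.43 (adjusted p = 0.0135). Cd36, a fatty acid transporter, rose with both, by 1.69 with 2,3-benzofuran and 3.06 with 1,5-naphthalenediamine, and its difference of -1.38 ± 0.43 did not pass the test (adjusted p = 0.142). Pltp, phospholipid transfer protein, had effects of -0.45 and 1.01 and a difference of -1.45 ± 0.20 (adjusted p = 0.000468). Scd2, a fatty acid desaturase, had a mean above the lowest array median in 1,5-naphthalenediamine livers only and a difference of -2.12 ± 0.26, or -1.61 with dim values raised. Other probe sets of Scd2, too dim to be kept, had differences of -0.35 and 0.21. Apoa4, an apolipoprotein, went the other way. It had 12.3, 11.8 and 12.4 in 2,3-benzofuran livers and 10.7, 10.6 and 10.6 in corn oil livers, with 10.0, 10.2 and 9.74 in 1,5-naphthalenediamine livers and 11.01, 10.86 and 10.56 in feed control livers. Apoa4 rose by 1.42 with 2,3-benzofuran and fell by 1.02 with 1,5-naphthalenediamine, a difference of 2.44 ± 0.21 (adjusted p = 2.91e-06).

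Gpx6 and Btg2 were called lower as well. Gpx6, a glutathione peroxidase, had 6.75, 6.32 and 5.76 in 1,5-naphthalenediamine livers, against 4.29, 4.14 and 3.91 in feed control livers. It lay between 3.89 and 4.20 in the 2,3-benzofuran and corn oil livers, and its difference was -2.01 ± 0.26 (adjusted p = 0.000207). Btg2, an antiproliferative gene that p53 raises, had effects of -0.68 and 1.12, of which the first did not pass the test, and a difference of -1.80 ± 0.37 (adjusted p = 0.0213). It was not called without 2,3-benzofuran animal 6 or 1,5-naphthalenediamine animal 4. Of 28 tested p53 targets, Btg2 and Pltp were called lower and 0 higher, and the median was -0.07. Cdkn1a, a standard p53 target named after its values were seen, had effects of 1.58 and 0.99 and was not called.

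**Figure D3:**
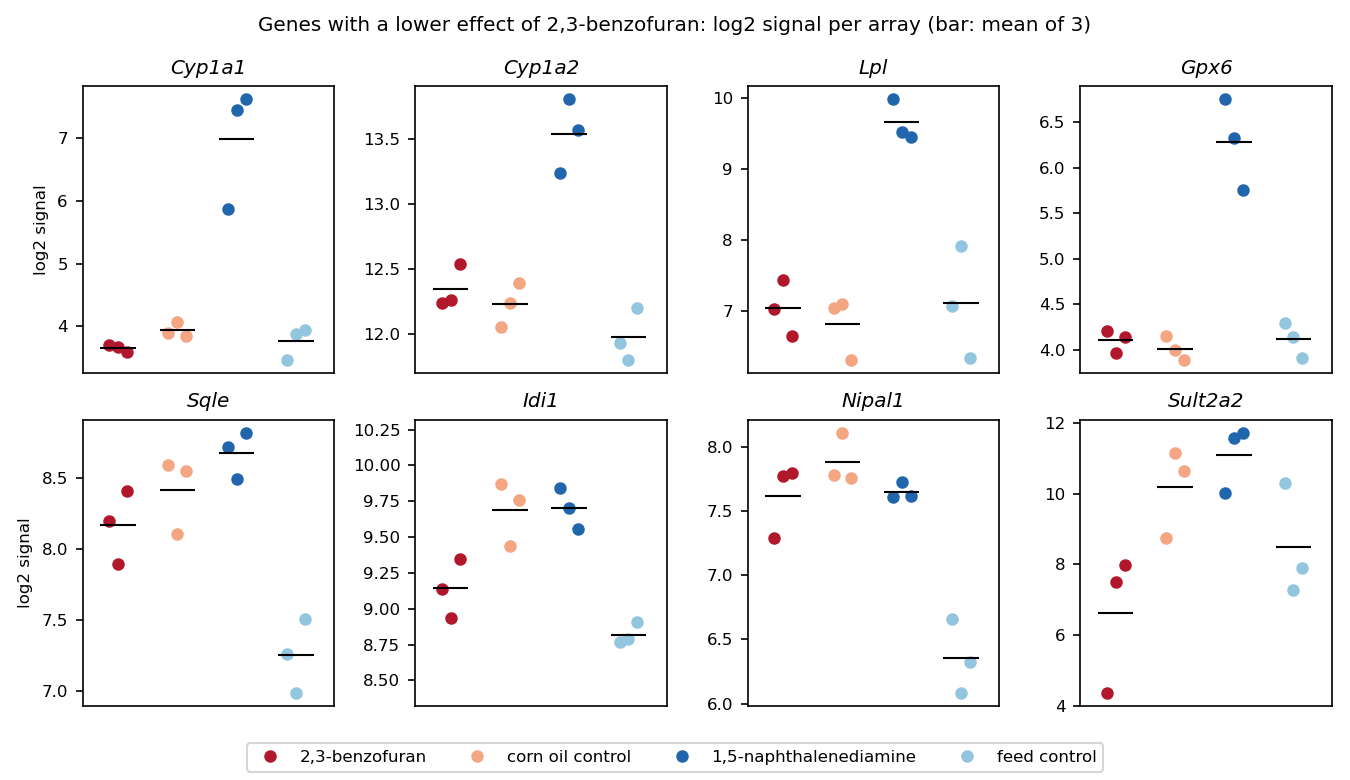
Log2 signal of 8 genes called lower with 2,3-benzofuran in each of the 12 arrays (points) with the group mean (bar); each panel has its own axis. In Cyp1a1, Cyp1a2, Lpl and Gpx6 the 1,5-naphthalenediamine livers lie above all others, whereas in Sqle, Idi1 and Nipal1 the feed control livers lie below all others.

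Enzymes of cholesterol synthesis were, of the 45 lists, the one with the most called members. Of 20 tested, 8 were called lower with 2,3-benzofuran (Sqle, Idi1, Fdft1, Pmvk, Lss, Cyp51, Nsdhl and Tm7sf2) and 0 higher. Over all tested genes 0.6% were called lower and 0.362% higher. All 20 differences were negative, with a median of -0.70. With 2,3-benzofuran 0 of the 20 rose and 4 fell, against 24.8% and 7.58% of all tested genes. With 1,5-naphthalenediamine 13 rose and 0 fell, against 31.5% and 8.41%. Sqle, squalene epoxidase, had 8.20, 7.90 and 8.41 in 2,3-benzofuran livers and 8.59, 8.11 and 8.55 in corn oil livers. It had 8.72, 8.49 and 8.82 in 1,5-naphthalenediamine livers and 7.27, 6.99 and 7.51 in feed control livers. The 2,3-benzofuran and corn oil livers overlapped, and the feed control livers lay below all others. The effects were -0.36 and 1.25, and the difference was -1.60 ± 0.31 (adjusted p = 0.0121). Idi1, isopentenyl diphosphate isomerase, fell by 0.66 with 2,3-benzofuran and rose by 0.71 with 1,5-naphthalenediamine (difference -1.36 ± 0.27, adjusted p = 0.0135). The controls differed in these genes as well. In the 8 called genes the corn oil livers were 0.463 to 1.16 above the feed control livers, and the 2,3-benzofuran livers were 0.238 to 0.558 below the 1,5-naphthalenediamine livers. With the 6 control arrays pooled, 0 of the 20 were called. Without the 3 arrays of high 18S signal 0 were called, with a median of -0.81, and with the clock index as a covariate 5 were called. The count was 4 without corn oil animal 24 or 25, 1,5-naphthalenediamine animal 4 or feed control animal 28, and 5 without 2,3-benzofuran animal 6 or 8.

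In Nipal1, a magnesium transporter, the exposed groups were alike in level and the controls were not. It had 7.29, 7.77 and 7.79 in 2,3-benzofuran livers and 7.78, 8.11 and 7.76 in corn oil livers. Livers given 1,5-naphthalenediamine had 7.61, 7.72 and 7.62, against 6.66, 6.08 and 6.32 in feed control livers. The difference of effects was -1.49 ± 0.24 (adjusted p = 0.00202), while exposed livers differed by -0.03 and corn oil from feed control livers by 1.53.

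**Figure D4:**
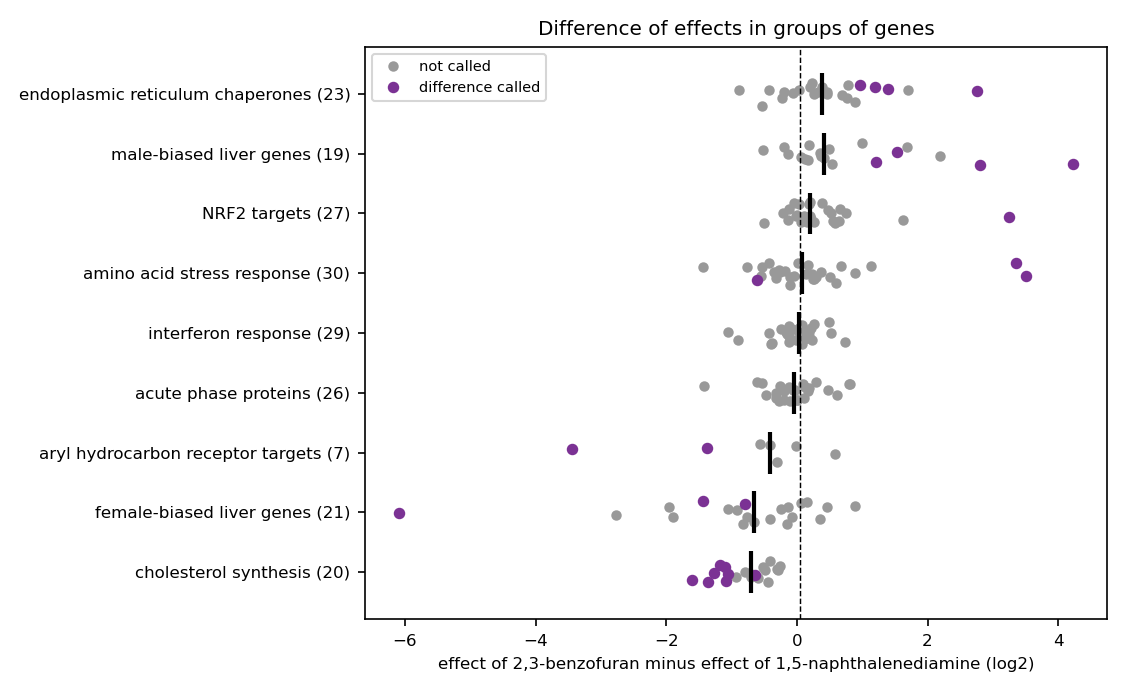
Difference of effects (log2) of each tested member of 9 groups of genes, with the number tested in brackets; purple points were called, black bars are group medians and the dashed line is the median of all tested genes, 0.04. Cholesterol synthesis lies wholly below 0, with a median of -0.70.

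NRF2 targets rose with both chemicals. Of 27 tested, 25 rose with 2,3-benzofuran and 24 with 1,5-naphthalenediamine, against 24.8% and 31.5% of all tested genes, and the median effects were 0.99 and 0.93. In 16 members both rises were at least 1.5-fold, and in 6 of these the effect was the same by the interval used below. Cbr3, a carbonyl reductase, was the 1 member whose difference was called. This count depended on the setting: 2 were called higher with values raised to the lowest array median, with quantile normalization (and 1 lower) and with either centring, and 6 with controls pooled. It had 8.45, 8.54 and 8.23 in 2,3-benzofuran livers and 3.66, 3.47 and 3.64 in corn oil livers, with 4.39, 5.22 and 6.17 in 1,5-naphthalenediamine livers and 3.44, 3.73 and 3.70 in feed control livers. Its difference was 3.25 ± 0.38 (adjusted p = 0.000143), and both control means lay under the lowest array median. Abcc4, an exporter of conjugates, had the largest effects of the 27 with either chemical, 5.45 and 3.82, with control means under that median. Its difference of 1.63 ± 0.41 did not pass the test (adjusted p = 0.0808), and its 95% interval, not adjusted for the number of genes, was 0.77 to 2.48. With values under that median raised to it, the difference was 1.88 and passed (adjusted p = 0.0435).

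Genes with the same effect were those called in both in the same direction, with each effect at least 1.5-fold and the 95% interval of the difference within 1.5-fold either way. Rises of at least 1.5-fold were called in 561 genes with 2,3-benzofuran (4.61%) and 450 with 1,5-naphthalenediamine (3.7%), and falls in 384 (3.16%) and 626 (5.14%). Changes in common were found in 174 genes upward (1.43% of those tested; 31.0% of the genes that rose so with 2,3-benzofuran and 38.7% of those with 1,5-naphthalenediamine). Downward they were found in 189 genes (1.55%; 49.2% and 30.2% of the lists). The difference was called in 4 of the 174 (Cbr3, Cyp2d9, Osbpl3 and P4ha2) and in 1 of the 189 (Pglyrp2). The same effect was found in 66 genes upward (0.542%) and 83 downward (0.682%). Over all tested genes, 57.9% had an interval within this margin, whether changed or not. Of the 149 genes with the same effect, 88 kept it with quantile normalization, 70 with the clock index as a covariate and 139 with either centring. Of the 363 genes changed in common, 278 remained so with quantile normalization, 224 with the clock index and 349 with arrays centred on the median gene.

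Ugdh, which makes the sugar donor of glucuronidation, had the largest rise among these. It had 12.1, 12.0 and 12.1 in 2,3-benzofuran livers and 9.74, 9.76 and 9.78 in corn oil livers. Livers given 1,5-naphthalenediamine had 11.4, 11.8 and 12.1, against 9.54, 9.35 and 9.28 in feed control livers. Exposed livers lay above all controls and overlapped each other. The effects were 2.17 and 2.19, and the interval of the difference was -0.44 to 0.41. The window around its start (chr5:65435793-65436092 of GRCm38.p6, minus strand, from RefSeq) holds TGACNNNGC, the core of the antioxidant response element that NRF2 reads, at 2 places. Both are in capitals, the first along the gene's strand and the second on the opposite strand.
Ugdh: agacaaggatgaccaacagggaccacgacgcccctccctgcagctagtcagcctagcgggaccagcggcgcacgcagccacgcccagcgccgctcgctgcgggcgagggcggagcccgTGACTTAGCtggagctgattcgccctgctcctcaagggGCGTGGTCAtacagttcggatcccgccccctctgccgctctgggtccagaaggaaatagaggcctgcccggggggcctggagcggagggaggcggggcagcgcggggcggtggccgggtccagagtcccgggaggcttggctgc

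No match was found in the windows of Gstm1, Gstp1, Cbr3 and Gsta2, and 1 of the 2 windows of Pgd held a match. The letters were found in 8 of 22 windows of NRF2 targets (36.4%) and in 16.9% of windows of tested genes. Among the 66 genes with the same rise, 11 of 54 windows held them (20.4%). Gstm1 and Gstp1, glutathione S-transferases that conjugate electrophiles, had effects of 1.30 and 1.20 and of 1.30 and 1.12, with intervals of -0.19 to 0.39 and -0.07 to 0.44. Pgd, which supplies NADPH in the pentose phosphate pathway, had 1.03 and 1.08, with an interval of -0.40 to 0.31. Ikbkg, a regulator of NF-kappa-B signalling, had 1.39 and 1.25. Gsta2, an alpha-class glutathione S-transferase, had larger and near-equal effects of 3.25 and 3.23, but the interval of -1.03 to 1.08 was too wide for the same effect to be shown. Glutathione S-transferases have close paralogs, and the probe sets of this family may share signal. Of 20 tested, Mgst2 was called higher with 2,3-benzofuran (1.33 ± 0.24, or 0.93 with dim values raised) except without corn oil animal 25, and Gstm7 lower (-0.72 ± 0.18) with the call lost without any 1 of 8 arrays.

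Downward, Cxcl9, a chemokine that interferon gamma raises, had 6.18, 6.76 and 6.40 in 2,3-benzofuran livers and 7.65, 7.77 and 7.83 in corn oil livers. In 1,5-naphthalenediamine livers it had 6.60, 6.25 and 6.26, against 7.56, 7.49 and 7.56 in feed control livers. The effects were -1.41 and -1.34, and the interval of the difference was -0.56 to 0.42. Exposed livers lay below all controls. Of 29 tested interferon response genes, 13 fell with 2,3-benzofuran and 9 with 1,5-naphthalenediamine, against 7.58% and 8.41% of all tested genes, and the median effect was -0.43 for each. The difference was called in 0 of the 29. H2-Ea, a class II antigen presentation gene, fell by 0.85 and 1.06 (interval -0.12 to 0.54), and Pirb, a receptor of myeloid and B cells, fell by 0.84 and 0.85. Arhgap26, Lingo1, Aebp1, Qpct and Rhox9 were among the other falls of like size. In Cxcl9, Aebp1, Arhgap26 and Lingo1 other kept probe sets of the gene, all dimmer, did not show falls of this size. For Cxcl9 the other probe set averaged 4.30 in 2,3-benzofuran livers and 4.53 in corn oil livers, with 4.30 in 1,5-naphthalenediamine livers and 4.63 in feed control livers. Pirb averaged 4.42 in 2,3-benzofuran livers and 4.30 in 1,5-naphthalenediamine livers, and Rhox9 averaged 4.43 and 4.315. These means lie close to the array medians of 4.25 to 4.35, so how far Pirb and Rhox9 fell is uncertain. In Cryl1, among the rises, 1 of the other probe sets was lower in exposed livers.

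**Figure D5:**
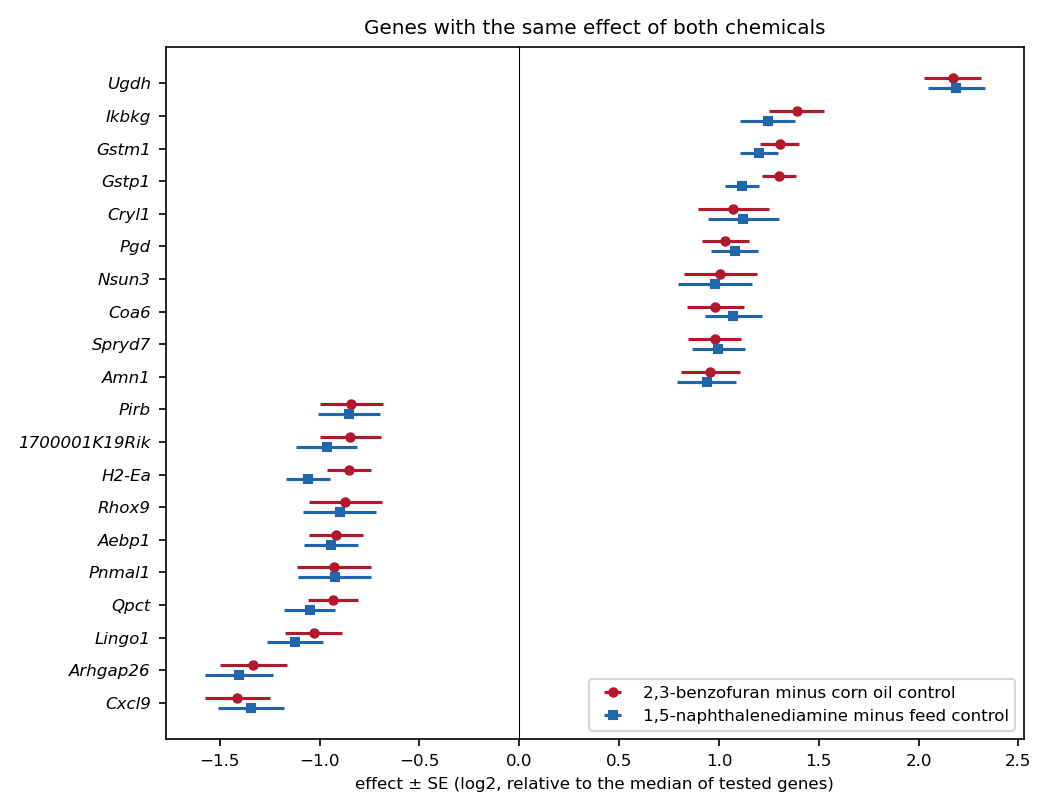
Effects (log2, points, with the standard error of the model, n = 3 per group) of 2,3-benzofuran (circles) and 1,5-naphthalenediamine (squares) for genes with the same effect, the 10 that rose most and the 10 that fell most. Ugdh rose most, by 2.17 and 2.19, and Cxcl9 fell by 1.41 and 1.34.

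Some macrophage markers fell with both treatments, beside the falls of immune genes. Summed linear signal, in units of 1000, of the 18 tested macrophage and Kupffer cell markers of 20 on the array was 3.49 to 4.35 in 2,3-benzofuran livers and 4.87 to 5.99 in corn oil livers. It was 3.03 to 4.52 in 1,5-naphthalenediamine livers and 3.74 to 5.84 in feed control livers, and 0 of the 18 had a mean signal under 4.25. The 2,3-benzofuran livers did not overlap the corn oil livers, and the 1,5-naphthalenediamine livers overlapped the feed control livers. Macrophage markers were not alone in this: the summed signal was also lower in 2,3-benzofuran than in corn oil livers, without overlap, for endothelial markers (2.64 to 3.01 against 3.21 to 3.78), lymphocyte markers (0.369 to 0.424 against 0.451 to 0.507), neutrophil markers (0.132 to 0.145 against 0.165 to 0.181), adipose and pancreas markers (11.11 to 12.77 against 12.81 to 13.93) and the hepatocyte markers above. Of the 18 macrophage and Kupffer cell markers, 6 fell with 2,3-benzofuran and 4 with 1,5-naphthalenediamine, against 7.58% and 8.41% of all tested genes. The difference was called in 0 of the 18. In bulk liver, fewer cells of a type and less RNA per cell cannot be told apart, and the part of these cell types in the falls was not tested. Each of the other cell type lists (endothelial, stellate, cholangiocyte, lymphocyte, neutrophil, erythroid, and adipose and pancreas) also had 0 members called in the difference.

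Effects ran in opposite directions, each called and at least 1.5-fold, in 6 genes (0.0493%). Apoa4, Dnajc3 and Dnase2a, a lysosomal nuclease, rose with 2,3-benzofuran and fell with 1,5-naphthalenediamine. Idi1, Sult2a2 and Tent5c, a poly(A) polymerase, fell with 2,3-benzofuran and rose with 1,5-naphthalenediamine. A second, dimmer probe set of Tent5c did not show the rise, with means of 3.91 in 1,5-naphthalenediamine livers and 4.07 in feed control livers. Its difference was -0.23. Dnase2a had 9.19, 8.07 and 8.65 in 2,3-benzofuran livers and 6.86, 6.14 and 6.46 in corn oil livers, with 6.66, 6.28 and 6.59 in 1,5-naphthalenediamine livers and 7.01, 8.09 and 6.97 in feed control livers. Its difference was 3.06 ± 0.40 (adjusted p = 0.000468), and corn oil livers lay 0.87 below feed control livers. Dio1, which activates thyroid hormone, fell by 1.30 with 1,5-naphthalenediamine and rose by 0.55 with 2,3-benzofuran, just under the 1.5-fold limit, with a difference of 1.85 ± 0.27 (adjusted p = 0.00159).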

How the data were processed

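Liver RNA was hybridized to Affymetrix mouse expression arrays, 1 per animal. The deposited values are log2 signals made by the authors; that they are log2 was checked from their range, and how background was corrected and arrays were scaled or summarized is not given in the sources used here. Of 45101 probe sets, 34945 map to 1 gene in the platform annotation. A probe set was tested if it maps to 1 gene and exceeded its array's median in at least 3 of 18 arrays, and each gene was read from its brightest such probe set, leaving 12169 genes. With limma 3.58.1 under R 4.3.3, all 18 arrays entered 1 model holding a mean per group (6 groups) (empirical Bayes with a mean-variance trend, 12 residual degrees of freedom); contrasts were each effect and their difference. Adjusted p-values are Benjamini-Hochberg over all tested genes. The arrays' number and signal over background limit precision. The procedure was tested on simulated data.

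Genes named are the 12 largest differences each way among called genes whose exposed and control arrays do not overlap for at least 1 chemical, the 10 largest rises and falls among same effects, opposite effects, and members of 45 lists (up to 4 called or 2 uncalled each). The lists, members and genes were chosen with earlier results of these data known. The dim value floor was added after seeing the data. Alternatives are normalization, filters, probe sets, variance models, covariates, pooled controls, thresholds and arrays left out. Sequence windows are from RefSeq. Plots were made in Python 3.11.15 by matplotlib 3.10.9.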

Additional observations from a re-analysis of the deposited data

Results flagged for a closer look

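In 6 genes the effects of the chemicals ran in opposite directions and the test of the difference between them passed the threshold. The difference of effects (2,3-benzofuran minus 1,5-naphthalenediamine, log2) was 2.44 in Apoa4, 1.20 in Dnajc3 and 3.06 in Dnase2a, and it was -1.36 in Idi1, -6.10 in Sult2a2 and -1.26 in Tent5c. Apoa4, Dnase2a and Idi1 were called when any 1 array was left out. With the 6 control arrays pooled, the difference of Idi1 was -0.55 and was not called (limma adjusted p = 0.142). In Idi1 corn oil livers lay 0.87 above feed control livers, and 2,3-benzofuran livers lay 0.56 below 1,5-naphthalenediamine livers. Dnajc3 and Sult2a2 each lost the call without any 1 of 4 arrays, and Tent5c without any 1 of 2. A second, dimmer probe set of Tent5c had a difference of -0.23.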

How the results depend on the processing

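The main counts were 44 genes called higher and 73 lower with 2,3-benzofuran, 174 and 189 changed in common, 66 and 83 with the same effect, and 3 and 3 opposite. Genes called higher and lower numbered 90 and 82 with quantile normalization, 78 and 65 when centred on each array's median gene, 73 and 62 centred on the 75th percentile, 89 and 109 with array weights, 28 and 58 without probe sets of shared sequence, 32 and 46 with only the arrays compared, 19 and 23 with RNA integrity as a covariate, 19 and 33 with the clock index, 14 and 9 without the 3 arrays of high 18S signal, 207 and 114 with controls pooled, 16 and 16 at an adjusted p under 0.01, and 27 and 46 with a 2-fold limit. Leaving out 1 array at a time gave 19 to 82 higher and 24 to 112 lower, the fewest without corn oil animal 25 and the most without feed control animals 29 and 27. Common changes upward numbered 372 with no filter; downward they numbered 105 with no filter, 113 with the clock index, 89 without the 3 arrays and 112 at 0.01. They ran from 162 to 192 and from 156 to 199 with 1 array left out. The same effect upward was found in 185 genes with no filter, 37 without the 3 arrays, 113 with controls pooled and 138 with a 2-fold margin, and downward in 35, 31, 217 and 173, and in 45 with the clock index; with 1 array left out they ran from 56 to 70 and from 61 to 97. Opposite genes numbered 5 and 5 with either centring, 1 and 0 without the 3 arrays, with controls pooled or at 0.01, and 1 of those lower with no filter or with 18S as a covariate; with 1 array left out they ran from 1 to 5 and from 1 to 4. All 117 called genes kept their sign under each setting that tested them, except 1 of 117 with no filter and 2 of 99 without shared sequence. Of 3262 values of named genes under alternatives, 219 lost a call, 41 gained one and 0 changed sign while called. Of 44 named called genes, 28 were called with the clock index, 24 with RNA integrity, 16 without the 3 arrays and 34 with controls pooled; the causes were not tested. Signal over background limits the dim genes. No paired analysis was possible because the groups compared share no animal numbers.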
